A study of Mus musculus with 8 samples.

Results

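Transcripts of 35 genes that mark T cells, natural killer (NK) cells, B cells and plasma cells were followed across mouse colonic tumors of 3 kinds. The genes were chosen by name for their known roles in lymphocytes. A row of the table counted for a gene where the probe annotation listed it as the only symbol, and the brightest row by mean was used where there were several. By this rule 34 of the 35 genes were measured, out of 19938 genes in all, and each of the 34 had a single row. The level of the T cell kinase gene Lck was not analysed here, but Lck was counted in the motif search below.

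T cells recognise antigen through a receptor whose signal runs through the CD3 chains (Cd3d, Cd3e, Cd3g) and the zeta chain (Cd247) to the kinase Zap70. B cells use an immunoglobulin receptor with the chains Cd79a and Cd79b, and plasma cells derived from them secrete antibody. In the colon, T cells lie in the epithelium and the lamina propria, and plasma cells of the lamina propria make immunoglobulin A, which the epithelium carries into the lumen.

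The tumors were measured on 8 arrays, 1 per sample, and no array was left out. The serrated group (3 arrays) came from the proximal colon of mice labelled K-rasG12Dint/Ink4a/Arf-/-, that is, with a mutant K-ras allele and without the Ink4a/Arf tumor suppressor locus, and its labels name no carcinogen. The K-rasG12D AOM group (3 arrays) came from the distal colon of mice labelled K-rasG12Dint whose tumors were induced with azoxymethane (AOM), a colon carcinogen. The LSL AOM group (2 arrays) came from the distal colon of AOM-treated mice labelled LSL-K-rasG12D/+, which hold the K-ras allele behind a lox-stop-lox cassette. All genotype labels name the K-rasG12D allele. The meaning of "int" and the recombinase that opens the cassette are not given, nor whether any had acted in the LSL AOM mice, whose sample titles read "wt". The labels give no age or strain, and they do not say whether samples came from separate animals, so the p-values measure a spread that may be partly technical. Colon segment, carcinogen and Ink4a/Arf genotype went together in each comparison with the serrated group and cannot be told apart. Against the LSL AOM group, and so in part against both AOM groups, the K-ras genotype label differed as well. No normal colon was measured.

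The values are log2 signals. Array medians over all genes ran from 4.17 to 4.31. The standard deviation (SD) over genes was 1.77 on serrated replicate 1 and 2.00 to 2.13 on the other 7 arrays, so serrated replicate 1 had a compressed range. The epithelial gene Epcam stood between 10.08 and 10.45 on all arrays, so epithelium was present, but it does not tell colon from other epithelium. The leukocyte gene Ptprc, which encodes CD45, stood between 4.77 and 6.30.

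The starts of the 3 CD3 genes and of Jchain are shown because Cd3g and Jchain were among the most variable of the genes followed, while Cd3d and Cd3e, close relatives of Cd3g on the same chromosome, varied less. Each line gives the 250 bases before the start from RefSeq (build GRCm38.p6), 5′ to 3′ on the strand of the gene, with matches to 6 motifs in capitals.
Cd3d, chr9:44981536-44981785, plus strand: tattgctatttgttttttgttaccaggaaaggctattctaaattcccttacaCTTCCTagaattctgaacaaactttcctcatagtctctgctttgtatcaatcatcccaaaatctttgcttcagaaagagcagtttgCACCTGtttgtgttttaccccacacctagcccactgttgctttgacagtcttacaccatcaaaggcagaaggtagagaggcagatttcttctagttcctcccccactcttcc
Cd3e, chr9:45009612-45009861, minus strand: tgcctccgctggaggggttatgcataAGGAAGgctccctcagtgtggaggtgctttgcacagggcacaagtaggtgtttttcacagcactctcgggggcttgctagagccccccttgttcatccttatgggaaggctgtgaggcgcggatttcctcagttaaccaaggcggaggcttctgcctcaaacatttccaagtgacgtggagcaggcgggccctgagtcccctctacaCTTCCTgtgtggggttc
Cd3g, chr9:44980432-44980681, minus strand: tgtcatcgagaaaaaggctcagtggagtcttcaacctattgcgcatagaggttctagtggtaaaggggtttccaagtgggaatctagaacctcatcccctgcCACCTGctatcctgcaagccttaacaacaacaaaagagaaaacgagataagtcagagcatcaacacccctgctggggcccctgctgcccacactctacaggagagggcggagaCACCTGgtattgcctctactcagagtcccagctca
Jchain, chr5:88527898-88528147, minus strand: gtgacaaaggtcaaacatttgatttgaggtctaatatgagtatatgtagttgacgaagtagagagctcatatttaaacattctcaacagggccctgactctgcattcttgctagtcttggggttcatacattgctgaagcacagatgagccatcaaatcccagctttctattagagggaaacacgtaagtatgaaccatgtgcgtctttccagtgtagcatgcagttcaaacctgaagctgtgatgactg
The motifs were searched on both strands as the letters AGGAAG (ETS factors), CAGGTG and CAGCTG (E-boxes, bound by E proteins), TGTGGT (RUNX factors), ATTTGCAT (the octamer) and the NF-kB consensus. They do not share letters by construction, except that both E-boxes have the form CANNTG. Of the 35 genes, 23 had a window in the RefSeq table. AGGAAG was found for 11 of these 23 genes (47.8%) against 32.3% of the 27025 genes in the table. CAGGTG was also found for 11 (47.8%) against 19.4%, and TGTGGT for 8 (34.8%) against 15.9%. CAGCTG was found for 2 (8.70%) against 14.7%, and the octamer and NF-kB motifs for 0, against 1.81% and 0.159%. The Cd3d window held 1 match to AGGAAG and 1 to CAGGTG, that of Cd3e 2 to AGGAAG, that of Cd3g 2 to CAGGTG, and that of Jchain none to the 6 motifs. These matches describe the letters of the windows and not binding in the tumors.

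Of the lymphocyte genes, 1 passed the test in any comparison. With limma and Benjamini-Hochberg adjustment over all genes, 0 of the 34 genes passed an adjusted p of 0.05 between the serrated and both AOM groups, where 9.38% of all genes did (3.62% higher and 5.76% lower). Against the K-rasG12D AOM group alone 0 passed (6.45% of all genes, 2.46% higher and 3.99% lower), and against the LSL AOM group 1 passed, Cd3g, which was higher in serrated tumors (5.71% of all genes, 2.31% higher and 3.40% lower). Between the AOM groups 0 of the 34 genes passed, as did 0 of all genes. At an unadjusted p under 0.05 the counts in these 4 comparisons were 2, 1, 2 and 3 of 34, against 24.7%, 21.8%, 20.3% and 8.36% of all genes. The comparisons share arrays, so they are not independent of each other.

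Group ranges overlapped for all 34 genes between serrated and AOM arrays, where 16.2% of all genes had groups apart. Serrated and K-rasG12D AOM arrays also overlapped for all 34, against 25.8% of all genes apart. The groups stood apart for 8 genes between serrated and LSL AOM arrays (33.0% of all genes) and for 8 between the AOM groups (32.1%), where the LSL AOM group has only 2 arrays. The median log2 difference of the 34 genes was 0.13 for serrated against both AOM groups, 0.07 against K-rasG12D AOM, 0.17 against LSL AOM and 0.10 between the AOM groups, with medians over all genes of 0.04, 0.05, 0.04 and 0.01. Of the 34, 26 were above 0 in the first of these (54.8% of all genes), and 19 after quantile normalization of the arrays (50.4% of all genes). Single arrays set the sign of 2 of these 4 medians: that against K-rasG12D AOM was -0.06 without serrated replicate 1 and -0.02 without K-rasG12D AOM replicate 1, and that between the AOM groups was -0.03 without K-rasG12D AOM replicate 3.

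A missed threshold does not show equal levels, so the 95% intervals of the differences were set against a 2-fold change (1 on the log2 scale). For serrated against both AOM groups the interval lay within 2-fold for 26 of the 34 genes, and for 73.0% of all genes. Against K-rasG12D AOM it did so for 26 (69.5% of all genes), against LSL AOM for 18 (62.0%), and between the AOM groups for 24 (75.1%). The 8 genes whose interval reached past 2-fold in the first comparison were Cd3e, Cd3g, Cd8a, Ctla4, Ms4a1, Pou2af1, Jchain and Mzb1. Most of the genes were dim, with 30 of the 34 below the median gene (a mean log2 level of 4.26). The deposited values carry no detection call, so it is not known which dim genes were above background, and changes of genes near background are understated.

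**Figure D1:**
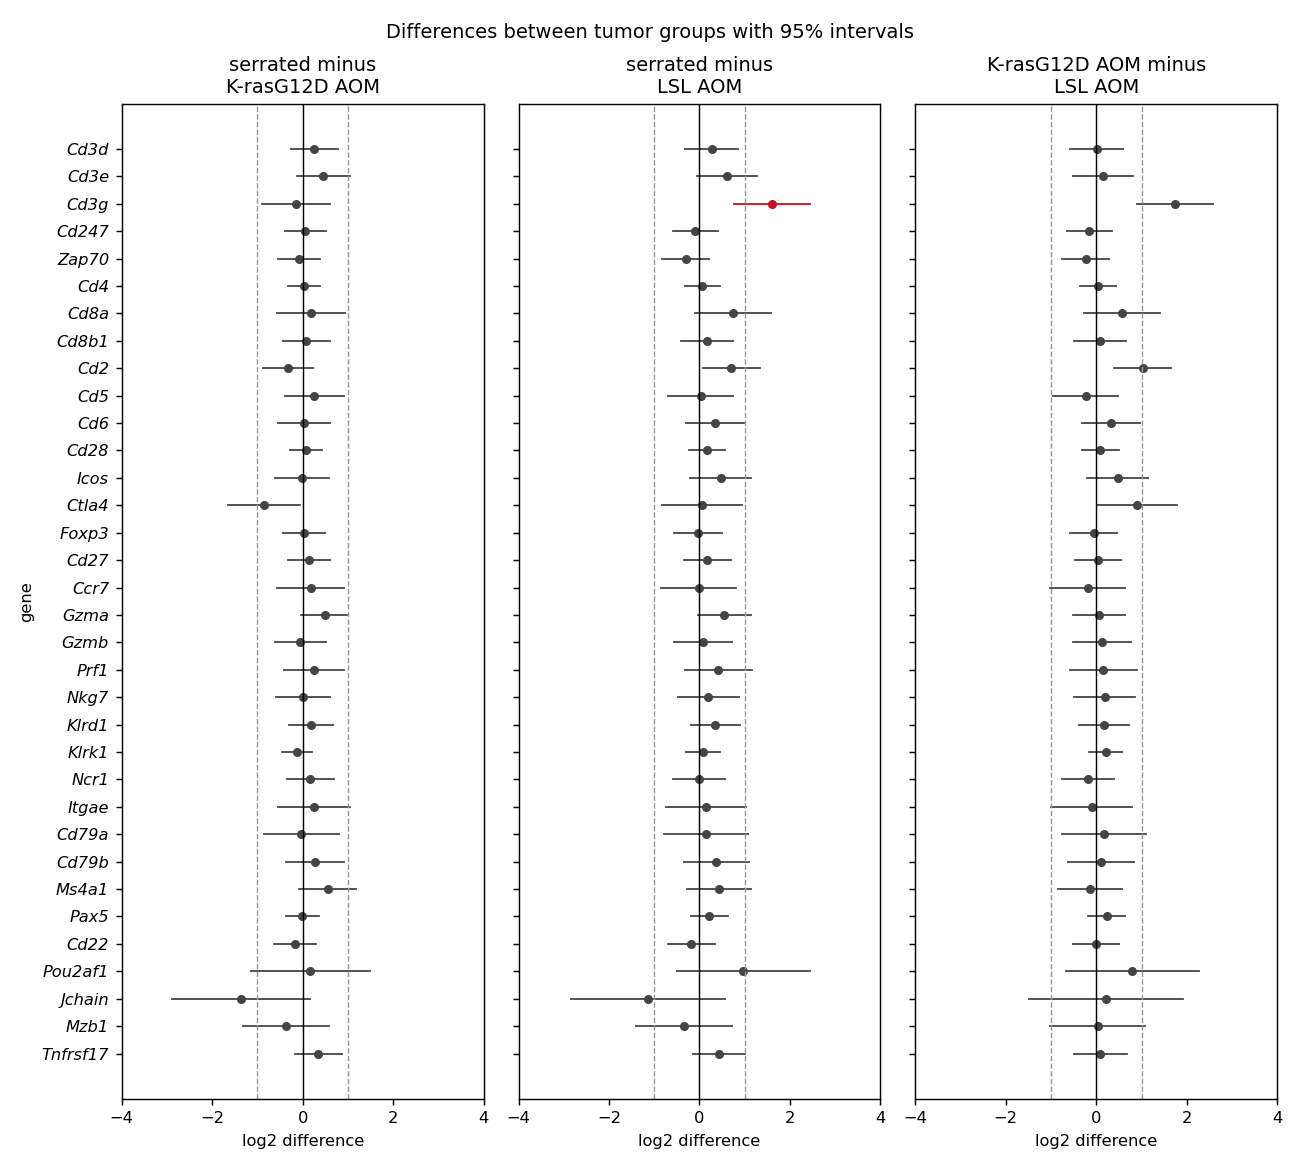
Log2 differences of the 34 lymphocyte genes (rows) in the 3 pairwise comparisons, with points for the difference, bars for its 95% interval and dashed lines at a 2-fold change. Only Cd3g in serrated against LSL AOM tumors, in red, passed an adjusted p of 0.05, and Jchain and Pou2af1 have the widest intervals.

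Of the T cell receptor complex and its kinase, 5 genes were measured, and Cd3g was the only one called in any comparison. Cd3g, the gamma chain of CD3, stood at 5.02, 4.34 and 5.22 on the serrated arrays, at 4.35, 5.07 and 5.59 on the K-rasG12D AOM arrays, and at 3.20 and 3.32 on the LSL AOM arrays. Both LSL AOM arrays lay below all 6 others, while serrated and K-rasG12D AOM arrays overlapped throughout. Serrated tumors averaged 4.86 ± 0.46 (SD, n = 3), K-rasG12D AOM tumors 5.002 ± 0.62 (SD, n = 3) and LSL AOM tumors 3.26 ± 0.09 (SD, n = 2). Cd3g was higher in serrated than in LSL AOM tumors by 1.59 ± 0.37 (SE) on the log2 scale, a 3.02-fold difference (limma adjusted p = 0.0417). K-rasG12D AOM and LSL AOM tumors differed by 1.74 ± 0.37 without passing (limma adjusted p = 0.269, unadjusted 0.00119). Serrated and K-rasG12D AOM tumors differed by -0.14 ± 0.33 (limma adjusted p = 0.826).

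The call on Cd3g was not stable to single arrays. It was lost without serrated replicate 1 or 2, K-rasG12D AOM replicate 2 or either LSL AOM array (limma adjusted p of 0.0527 to 0.242), although the difference stayed between 1.42 and 1.85.

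For the other 4 genes of the complex, the LSL AOM arrays overlapped the rest. Cd3e, the epsilon chain, stood at 4.97, 4.49 and 4.93 on the serrated arrays, at 4.08, 4.44 and 4.50 on the K-rasG12D AOM arrays and at 3.75 and 4.65 on the LSL AOM arrays. Serrated arrays were among the higher ones, but K-rasG12D AOM replicate 3 and LSL AOM replicate 2 lay inside their range. Cd3e differed by 0.53 ± 0.24 between serrated and both AOM groups (95% interval -0.00 to 1.06, limma adjusted p = 0.205). Cd3d, the delta chain, ran from 2.13 to 3.04, with both of these extremes on serrated arrays. Cd247, the zeta chain, ran from 2.81 to 3.42 and Zap70, the kinase recruited to the chains, from 2.85 to 3.51. For these 3 genes the intervals of all 4 comparisons lay within 2-fold.

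Among the 12 T cell coreceptors and genes of costimulation and regulation, 0 were called by limma in any comparison, and at an unadjusted p under 0.05 the counts were 0, 1, 1 and 2. Cd2, an adhesion receptor of T and NK cells, was also lowest on the LSL AOM arrays. It stood at 4.08, 4.07 and 4.18 on the serrated arrays, at 3.85, 4.58 and 4.85 on the K-rasG12D AOM arrays and at 3.43 and 3.38 on the LSL AOM arrays. Both LSL AOM arrays again lay below the other 6. The difference was 1.02 ± 0.27 between the AOM groups (limma adjusted p = 0.332) and 0.71 ± 0.27 between serrated and LSL AOM tumors (limma adjusted p = 0.185).

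Cd8a, a chain of the coreceptor of cytotoxic T cells, stood at 4.98, 4.07 and 3.69 on the serrated arrays, at 3.96, 3.73 and 4.51 on the K-rasG12D AOM arrays and at 3.44 and 3.57 on the LSL AOM arrays. The 2 LSL AOM arrays were the lowest, and serrated replicate 1 was the highest. Serrated and LSL AOM tumors differed by 0.74 ± 0.37 (limma adjusted p = 0.308). Its partner chain Cd8b1 ran from 2.59 to 3.28 with intervals within 2-fold in all 4 comparisons. With Klrk1 and Pax5, these made 5 of the 34 genes (Cd3g, Cd8a, Cd2, Klrk1 and Pax5) with both LSL AOM arrays below all 6 others, as held for 5.39% of all genes.

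Cd4, the coreceptor of helper T cells, was nearly level. It stood at 3.78, 3.88 and 3.79 on the serrated arrays, at 3.62, 3.87 and 3.90 on the K-rasG12D AOM arrays and at 3.82 and 3.68 on the LSL AOM arrays, a spread of 0.28 over all 8. The serrated and both AOM groups differed by 0.04 ± 0.14 (95% interval -0.27 to 0.36).

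Ctla4, an inhibitory receptor of activated and regulatory T cells, stood at 3.44, 2.54 and 3.17 on the serrated arrays, at 3.21, 4.41 and 4.08 on the K-rasG12D AOM arrays and at 2.72 and 3.27 on the LSL AOM arrays. K-rasG12D AOM replicates 2 and 3 were above the other 6 arrays, and replicate 1 was within the range of the other groups. Serrated tumors differed from K-rasG12D AOM tumors by -0.85 ± 0.35 (limma adjusted p = 0.195, unadjusted 0.0372). Foxp3, the transcription factor of regulatory T cells, stood at 3.87, 3.40 and 3.30 on the serrated arrays, at 3.37, 3.36 and 3.77 on the K-rasG12D AOM arrays and at 3.65 and 3.46 on the LSL AOM arrays. The 3 groups overlapped, and the difference between serrated and both AOM groups was -0.00 ± 0.19 (95% interval -0.43 to 0.42).

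Icos, a costimulatory receptor, stood at 3.86, 3.03 and 4.04 on the serrated arrays, at 3.47, 3.89 and 3.60 on the K-rasG12D AOM arrays and at 3.22 and 3.14 on the LSL AOM arrays. Its AOM groups did not overlap, with a difference of 0.48 ± 0.30 (limma adjusted p = 0.791), and the serrated arrays spanned both. The remaining genes were Cd5 and Cd6 (scavenger-type receptors of T cells), Cd28 (the main costimulatory receptor), Cd27 (a costimulatory receptor of the TNF receptor family) and Ccr7 (the lymph node homing receptor). Over the 8 arrays they ranged by 0.38 (Cd28) to 1.37 (Ccr7), and serrated replicate 1 was the highest array for each of the 5.

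**Figure D2:**
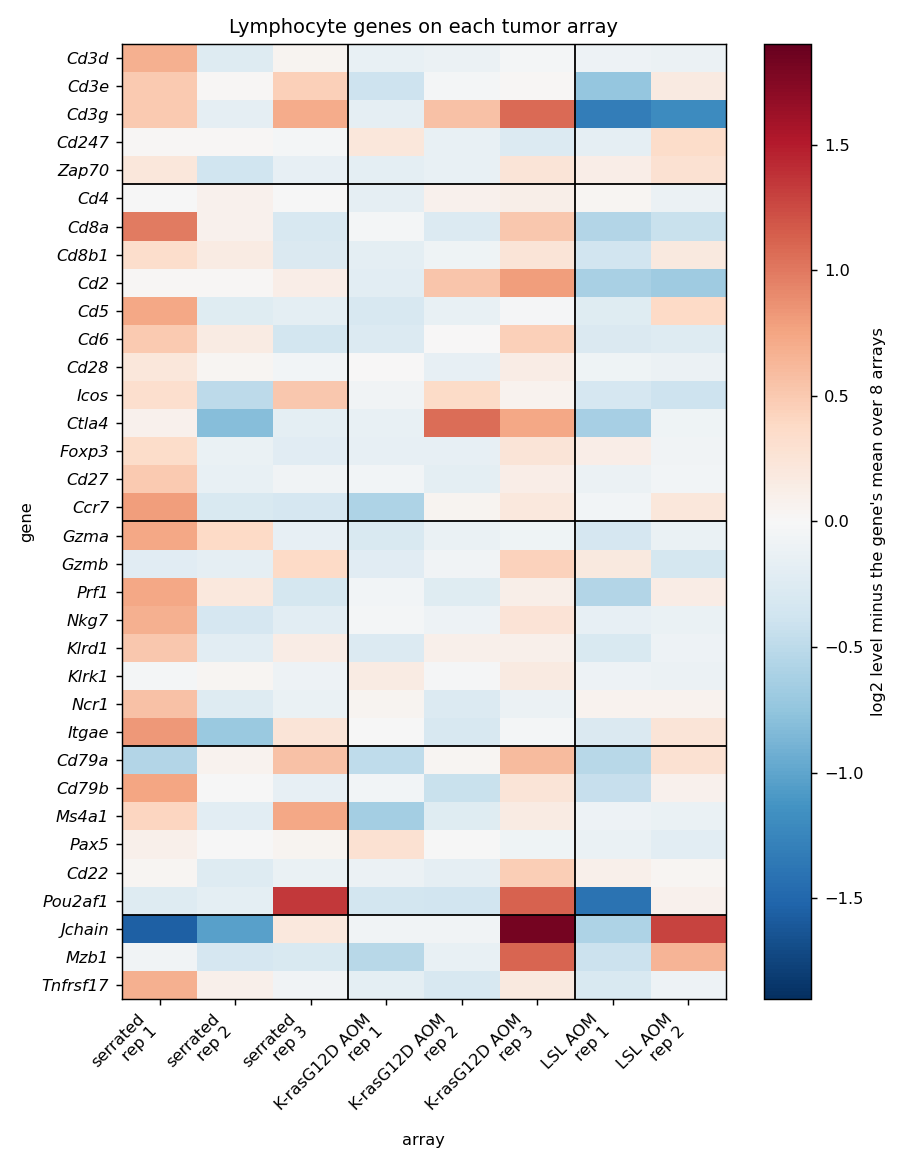
Each gene's log2 level minus its mean over the 8 arrays, with genes in rows by role and arrays in columns by group. Serrated replicate 1 is red for most T and NK cell genes, Cd3g and Cd2 are blue on both LSL AOM arrays, and Jchain and Mzb1 are red on K-rasG12D AOM replicate 3 and LSL AOM replicate 2.

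Of the 8 cytotoxic, NK and intraepithelial lymphocyte genes, 0 were called by limma in any comparison, with 1 at an unadjusted p under 0.05, Gzma. Gzma, a granule protease of killer lymphocytes, stood at 3.07, 2.71 and 2.18 on the serrated arrays, at 2.04, 2.21 and 2.25 on the K-rasG12D AOM arrays and at 2.01 and 2.21 on the LSL AOM arrays. Serrated replicates 1 and 2 were above all AOM arrays, while replicate 3 lay among them. The difference between serrated and both AOM groups was 0.51 ± 0.21 (limma adjusted p = 0.167). Without serrated replicate 3 it was 0.75 and passed (limma adjusted p = 0.0197).

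Gzmb, a second granzyme, ran from 2.95 to 3.73, and Prf1, the pore-forming protein of cytotoxic granules, from 3.34 to 4.64. For Gzmb the intervals of all 4 comparisons lay within 2-fold. Nkg7, a cytotoxic granule membrane protein, ran from 2.94 to 3.94 with both of these values on serrated arrays. The NK receptor genes were the dimmest of the 34. Klrk1, the activating receptor NKG2D, ran from 1.70 to 1.99, and Klrd1, the CD94 chain of NK receptors, stood at 2.64, 1.93 and 2.27 on the serrated arrays, at 1.86, 2.22 and 2.22 on the K-rasG12D AOM arrays and at 1.84 and 2.02 on the LSL AOM arrays. Ncr1, the NKp46 receptor, stood at 2.67, 1.87 and 1.99 on the serrated arrays, at 2.16, 1.86 and 2.00 on the K-rasG12D AOM arrays and at 2.19 and 2.19 on the LSL AOM arrays. Except for serrated replicate 1, the arrays of both genes kept within a narrow band, and serrated against both AOM groups gave 0.26 ± 0.19 for Klrd1 and 0.08 ± 0.20 for Ncr1.

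Itgae, the integrin CD103 that holds lymphocytes in the epithelium, stood at 4.92, 3.39 and 4.34 on the serrated arrays, at 4.08, 3.79 and 4.06 on the K-rasG12D AOM arrays and at 3.81 and 4.34 on the LSL AOM arrays. Its highest and lowest levels were both on serrated arrays. The difference between serrated and both AOM groups was 0.19 ± 0.32 (limma adjusted p = 0.739).

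The 6 B cell genes gave 0 calls by limma and 0 at an unadjusted p under 0.05 in all 4 comparisons. Ms4a1, the B cell surface protein CD20, stood at 2.70, 2.09 and 3.02 on the serrated arrays, at 1.64, 2.05 and 2.45 on the K-rasG12D AOM arrays and at 2.20 and 2.16 on the LSL AOM arrays. Serrated replicates 1 and 3 were the highest of the 8. The difference from both AOM groups was 0.49 ± 0.25 (limma adjusted p = 0.267). Cd79a, a signalling chain of the B cell receptor, stood at 1.63, 2.27 and 2.75 on the serrated arrays, at 1.72, 2.23 and 2.80 on the K-rasG12D AOM arrays and at 1.67 and 2.48 on the LSL AOM arrays. The 3 groups overlapped, and serrated and both AOM groups differed by 0.05 ± 0.33.

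Pou2af1, a coactivator of octamer-binding factors in B and plasma cells, was 1 of the 3 genes that ranged over 2 or more on the log2 scale, with Cd3g and Jchain. It stood at 4.42, 4.47 and 6.01 on the serrated arrays, at 4.31, 4.30 and 5.79 on the K-rasG12D AOM arrays and at 3.27 and 4.74 on the LSL AOM arrays. In each group 1 array was more than 1 above the rest of its group. The difference between serrated and both AOM groups was 0.57 ± 0.52 (limma adjusted p = 0.533). Cd79b, the partner of Cd79a, ran from 3.33 to 4.51, Pax5, the transcription factor of B cell identity, from 3.10 to 3.59, and Cd22, an inhibitory receptor of B cells, from 2.67 to 3.38.

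Of the 3 plasma cell genes, 0 were called by limma and 0 had an unadjusted p under 0.05 in any comparison. Jchain, which joins immunoglobulin A and M into polymers, was the brightest of the 34 genes. It stood at 6.09, 6.61 and 7.84 on the serrated arrays, at 7.57, 7.57 and 9.46 on the K-rasG12D AOM arrays and at 7.05 and 8.93 on the LSL AOM arrays. Serrated replicates 1 and 2 were the lowest of the 8, and K-rasG12D AOM replicate 3 and LSL AOM replicate 2 the highest. Serrated tumors averaged 6.84 ± 0.90 (SD, n = 3), K-rasG12D AOM tumors 8.20 ± 1.09 (SD, n = 3) and LSL AOM tumors 7.99 ± 1.33 (SD, n = 2). Serrated and both AOM groups differed by -1.25 ± 0.61 (95% interval -2.63 to 0.13, limma adjusted p = 0.242), an interval that includes a difference of 2-fold.

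Mzb1, a chaperone of immunoglobulin assembly, stood at 3.94, 3.68 and 3.71 on the serrated arrays, at 3.47, 3.86 and 5.11 on the K-rasG12D AOM arrays and at 3.59 and 4.65 on the LSL AOM arrays. The same 2 AOM arrays were the highest, and serrated and both AOM groups differed by -0.36 ± 0.38 (limma adjusted p = 0.586). Tnfrsf17, the plasma cell survival receptor BCMA, did not follow them. It stood at 3.49, 2.92 and 2.75 on the serrated arrays, at 2.63, 2.51 and 3.00 on the K-rasG12D AOM arrays and at 2.53 and 2.72 on the LSL AOM arrays. Serrated replicate 1 was the highest for this gene, and the difference from both AOM groups was 0.39 ± 0.21 (limma adjusted p = 0.290).

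A list of 10 immunoglobulin heavy and kappa chain genes, chosen after its values were seen and without Ighm, which stands in another list, gave 0 calls by limma in every comparison, with 1, 2, 2 and 0 at an unadjusted p under 0.05. Of these 10, 9 were highest on K-rasG12D AOM replicate 3 or LSL AOM replicate 2, as were 17.6% of all genes. The same 2 arrays were the highest for Jchain and Mzb1, so the pair, like the list, came from these data and the count is not a test. Also highest on these 2 arrays were 8 of 12 pan-leukocyte genes, 10 of 24 other B and plasma cell genes and 1 of 10 macrophage genes. Igha, the constant region of immunoglobulin A, stood at 7.71, 5.82 and 7.27 on the serrated arrays, at 7.50, 6.62 and 9.42 on the K-rasG12D AOM arrays and at 7.78 and 8.99 on the LSL AOM arrays. Averaged over the 10 immunoglobulin genes, the level relative to each gene's mean was 1.67 on K-rasG12D AOM replicate 3 and 1.65 on LSL AOM replicate 2. It was between -1.13 and 0.04 on the other 6 arrays. Ighm, the constant region of immunoglobulin M, stood at 5.96, 6.94 and 6.24 on the serrated arrays, at 5.72, 5.99 and 7.22 on the K-rasG12D AOM arrays and at 5.41 and 7.32 on the LSL AOM arrays. It too was highest on those 2 AOM arrays, and serrated and both AOM groups differed by 0.04 ± 0.49 (95% interval -1.06 to 1.14). Variable segments of kappa chains are alike in sequence, so signal may be shared between them. In tumor pieces like these, fewer cells of a type and less RNA per cell cannot be told apart.

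**Figure D3:**
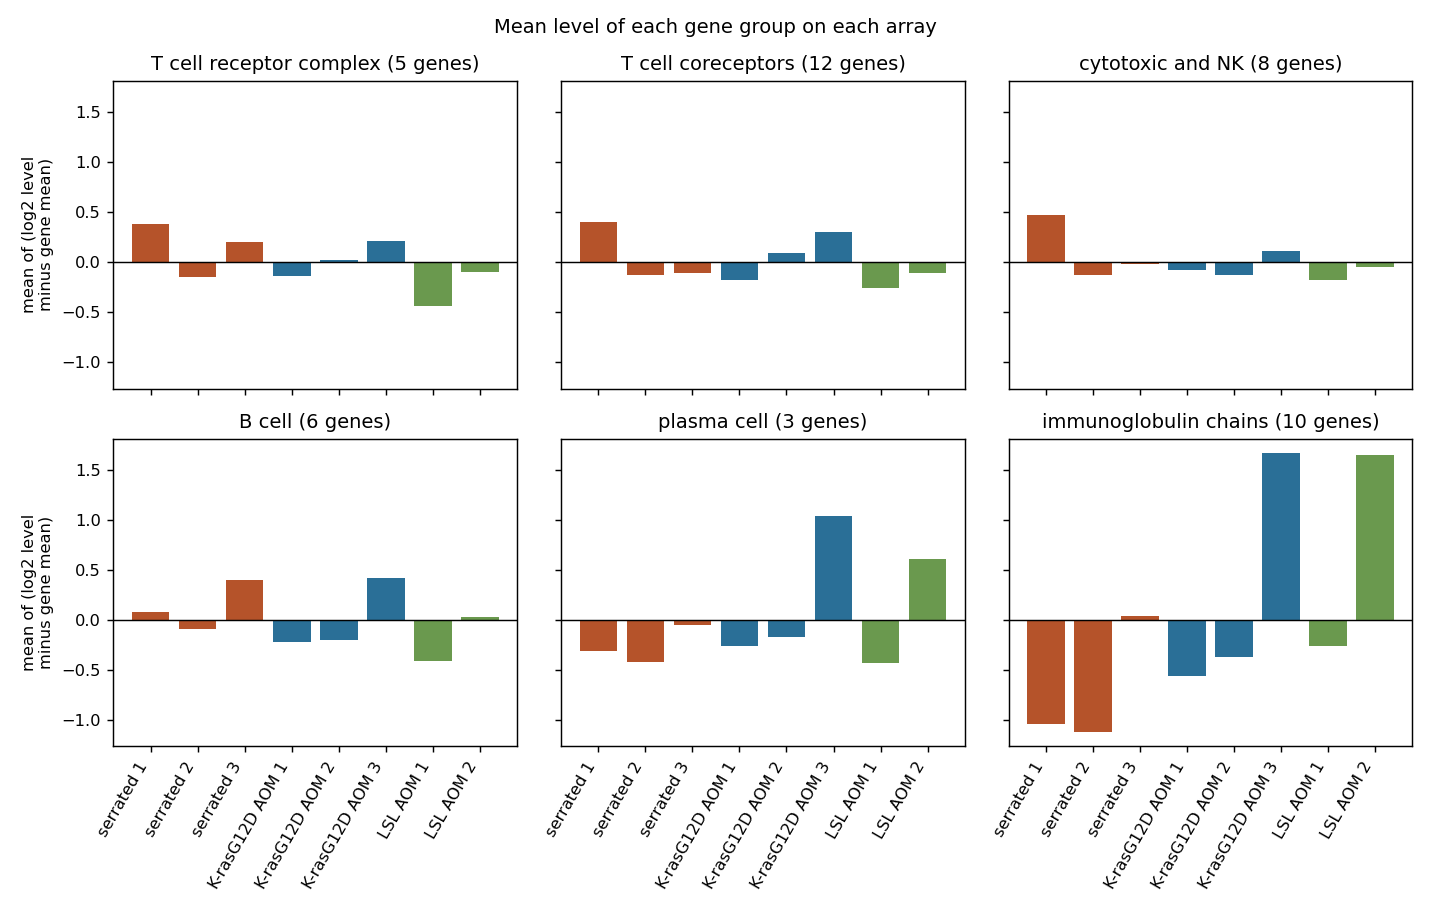
Bars give the mean over a gene group of the log2 level minus the gene's own mean, for each of the 8 arrays, with serrated in orange, K-rasG12D AOM in blue and LSL AOM in green. Immunoglobulin chains stand 1.67 and 1.65 above their means on K-rasG12D AOM replicate 3 and LSL AOM replicate 2, while the T cell and cytotoxic groups stay within 0.5 of theirs.

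Serrated replicate 1 was the highest array for 18 of the 34 genes, 8 of the 12 coreceptor and costimulation genes and 6 of the 8 cytotoxic and NK genes among them. It was the highest for 27.9% of all genes, but for 49.8% of the genes below the median level, to which 30 of the 34 belong. Of those 30, 17 were highest on serrated replicate 1. The median of the 34 genes relative to their means was 0.38 on this array, against 0.25 for all genes below the median level. After quantile normalization, it was 0.18, and 14 of the 34 genes were highest there. K-rasG12D AOM replicate 3 was the highest for 9 of the 34 genes, against 6.60% of all genes and 7.73% of those below the median level, with a median of 0.19. LSL AOM replicate 1 was the lowest for 9 of the 34, a share near the 25.3% of genes below the median level (16.1% of all genes), with a median of -0.27. Without serrated replicate 1 the median difference of the 34 genes between serrated and both AOM groups was 0.03 in place of 0.13, with 0 genes called by limma.

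Of 29 other T and NK cell genes, 1 was called against both AOM groups, where 9.38% of all genes were called. That gene was Lef1, which was lower in serrated tumors by 2.18 ± 0.16 (limma adjusted p = 0.000236) and lower against each AOM group alone. Lef1 encodes a transcription factor of T cells that also acts downstream of Wnt in epithelium, and it was called with any 1 array left out. The T cell factors Gata3 and Tbx21 and the lymphocyte chemokine Xcl1 were next in this list. They differed by 1.20 ± 0.42, 0.52 ± 0.22 and 0.46 ± 0.17 without passing (limma adjusted p of 0.115, 0.185 and 0.139). Of 24 other B and plasma cell genes, 1 was called in each comparison with the serrated group, against 9.38%, 6.45% and 5.71% of all genes. That gene was Pigr, the epithelial receptor that carries immunoglobulin A and M across the epithelium. Pigr stood at 10.52, 10.41 and 10.44 on the serrated arrays, at 9.25, 9.56 and 9.68 on the K-rasG12D AOM arrays and at 9.33 and 9.28 on the LSL AOM arrays. All serrated arrays were above all AOM arrays, by 1.06 ± 0.15 or 2.08-fold against both groups (limma adjusted p = 0.00423), and this call held with any 1 array left out. The call against K-rasG12D AOM tumors was lost without serrated replicate 2 or K-rasG12D AOM replicate 1 or 2 (limma adjusted p of 0.0533 to 0.0609). That against LSL AOM tumors was lost without either LSL AOM array (0.0880 to 0.0952). Its direction was opposite to that of Jchain, which did not pass.

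Of 22 lymphoid chemokine, receptor and addressin genes, 1 rose and 1 fell in serrated against both AOM groups, 2 fell against K-rasG12D AOM tumors and 1 rose against LSL AOM tumors. These counts are near the shares of all genes called, 9.38%, 6.45% and 5.71%. Ccl20, an epithelial chemokine for cells with the receptor Ccr6, stood at 5.48, 6.10 and 6.29 on the serrated arrays, at 5.11, 4.43 and 4.91 on the K-rasG12D AOM arrays and at 3.95 and 4.74 on the LSL AOM arrays. All serrated arrays were above all AOM arrays, with a difference of 1.37 ± 0.27 from both groups (limma adjusted p = 0.0160). The call was lost without serrated replicate 2 or LSL AOM replicate 1 (limma adjusted p of 0.0586 to 0.0794). Against LSL AOM tumors alone Ccl20 was called (limma adjusted p = 0.0273), and lost without serrated replicate 2, K-rasG12D AOM replicate 3 or either LSL AOM array (0.0517 to 0.224). Ccr6 itself differed by 0.53 ± 0.20 without passing (limma adjusted p = 0.135).

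Cxcl10 and Cxcl9 are interferon-induced chemokines for T and NK cells with the receptor Cxcr3. Cxcl10 stood at 3.89, 4.07 and 4.38 on the serrated arrays, at 5.23, 5.29 and 6.72 on the K-rasG12D AOM arrays and at 4.95 and 5.71 on the LSL AOM arrays. All serrated arrays were below all AOM arrays, and Cxcl10 was lower by 1.42 ± 0.36 against both groups (limma adjusted p = 0.0404). That call was lost without serrated replicate 1 or 2, K-rasG12D AOM replicate 2 or either LSL AOM array (limma adjusted p of 0.0560 to 0.142). Its call against K-rasG12D AOM tumors alone (limma adjusted p = 0.0456) was lost without any 1 array other than serrated replicate 3 (0.0640 to 0.145). Cxcl9 stood at 3.95, 3.67 and 4.42 on the serrated arrays, at 5.59, 6.32 and 7.31 on the K-rasG12D AOM arrays and at 3.30 and 5.48 on the LSL AOM arrays. It was lower in serrated than in K-rasG12D AOM tumors by 2.39 ± 0.58 (limma adjusted p = 0.0441), and the 2 LSL AOM arrays lay on either side of the serrated ones. That call was lost without serrated replicate 1 or 2 or without any 1 of the K-rasG12D AOM arrays (limma adjusted p of 0.0557 to 0.157). Cxcr3, the receptor of both, differed from K-rasG12D AOM tumors by -0.03 ± 0.26 (limma adjusted p = 0.954).

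**Figure D4:**
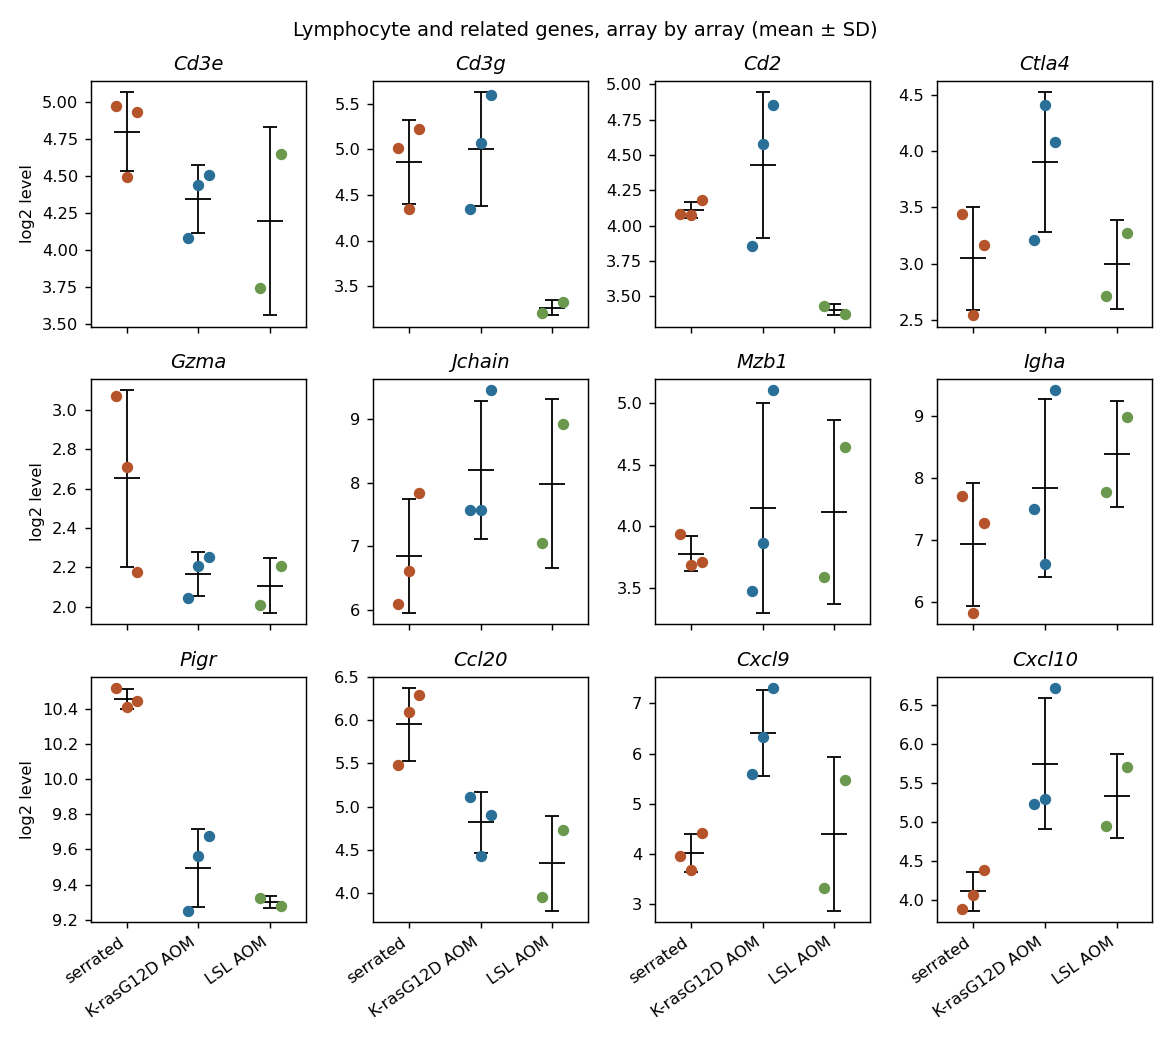
Log2 levels of 12 genes on each array (points) by group, with the mean and SD as a bar; each panel has its own vertical axis, which does not start at 0. Cd3g and Cd2 are low on both LSL AOM arrays, Jchain, Mzb1 and Igha are high on 1 K-rasG12D AOM and 1 LSL AOM array, and Pigr and Ccl20 are higher, and Cxcl10 lower, on all serrated arrays than on all AOM arrays.

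Markers of other cells were read beside these values. Of 10 macrophage genes 6 fell in serrated against both AOM groups, with a median of -0.99, where 5.76% of all genes fell. Of 8 fibroblast genes 3 fell, with a median of -1.16. Of 12 pan-leukocyte genes 0 were called by limma, with a median of -0.31, and 2 had an unadjusted p under 0.05, where 24.7% of all genes did. Against K-rasG12D AOM tumors 2 of 8 neutrophil genes fell, S100a8 and Ly6g, with a list median of -1.06 (3.99% of all genes fell). In this list 2 genes, Mpo and Elane, were above 0. Ly6g had a mean level of 8.71, against 2.53 to 4.83 for the other neutrophil genes. Against K-rasG12D AOM tumors 1 of 8 mast cell genes rose, with a median of 0.94 (2.46% rose). Against LSL AOM tumors 0 genes of these 2 lists were called, where 5.71% of all genes were. The medians there were -0.06 (neutrophil) and 0.03 (mast cell), with 4 of 8 genes above 0 in each list. Between K-rasG12D AOM and LSL AOM tumors the medians were 1.37 (neutrophil) and -1.06 (mast cell). Of 10 epithelial genes 1 rose against both AOM groups, with a median of 0.25 (3.62% rose), and of 8 endothelial and 8 smooth muscle genes 0 were called by limma, with 0 and 1 at an unadjusted p under 0.05. Averaged over the macrophage list, the level relative to each gene's mean ran from -0.82 to -0.25 on the serrated arrays and from 0.07 to 0.63 on the AOM arrays. For the 34 lymphocyte genes these ranges were -0.15 to 0.30 and -0.31 to 0.33. The lymphocyte genes were dimmer, with array means of 3.08 to 3.71 against 4.68 to 6.13 for the macrophage list, so the ranges are not like for like. The part of these other cells in the lymphocyte and chemokine levels was not tested.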

How the data were processed

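RNA of 8 tumors was hybridised to 1 array each. GCOS and RMA (robust multi-array average) are the tools in the submitters' processing notes, without versions or settings, and the deposited values are on a log2 scale. The deposited table held 35557 probe sets with values from 0.564 to 13.5. Of these, 21789 carried exactly 1 symbol in the platform annotation, which gave 19938 genes. No further scaling and no filter on dim genes was applied. Samples were grouped by genotype label. A limma 3.58.1 fit (R 4.3.3) of 3 group means to 8 arrays, with 5 residual degrees of freedom and 1 spread per gene, gave the 4 comparisons, and p-values were adjusted by Benjamini-Hochberg over all genes. The mean of both AOM groups weights each group equally. The number of arrays limits the precision. The 34 genes, the other lists and the motifs were chosen with earlier results of these data known, and the immunoglobulin and T cell receptor segment lists after their values were seen. Values on every array are given for 18 of the 34 genes: those that passed, those of smallest p up to 12, and 12 defining genes. From each of the other lists up to 4 genes of smallest adjusted p could be named. Not all of these were named, and some, such as Lef1, were given without values on every array. Ptprc, Epcam, Ccr6, Cxcr3, Il7r, Cxcl13, Trgv1, Ighm, Igha, Mpo and Elane were named beside that rule. Alternatives were the mean of all probe sets of a gene, leaving out the dimmest 40% of genes, quantile normalization, trend and robust variance, array weights, the compared groups alone, no variance moderation, and each array left out.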

Additional observations from a re-analysis of the deposited data

Results flagged for a closer look

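The 34 genes were searched for 1 array far from the rest among the 5 AOM arrays, and 1 gene met the criterion. Nkg7 was highest on K-rasG12D AOM replicate 3 at 3.53, against 3.23 on the next array and 3.11 on the lowest. The gap was 0.713 of the whole range, just past Dixon's critical value of 0.71, and chance alone flags about 5% of such groups. The single groups of 2 or 3 arrays were too small for this search.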

How the results depend on the processing

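Array weights changed the counts of called genes most: limma with weights called 7 of the 34 genes for serrated against both AOM groups, 7 against K-rasG12D AOM and 3 against LSL AOM, in place of 0, 0 and 1. The default estimate of the weights did not converge and gave serrated replicate 2 a weight of 25.6, against 0.168 to 2.01 for the others. Itgae then turned to -0.63 and -0.60 in the first 2 comparisons and was called in each (limma adjusted p = 0.00900 and 0.0181). Against LSL AOM it turned to -0.67 without passing (limma adjusted p = 0.0767). With weights estimated gene by gene, added after seeing the data, the counts were 1, 2 and 0. Gzma was called in the first 2 comparisons with these weights (limma adjusted p = 0.0153 and 0.0202). With the default weights it was called in the first 3 (limma adjusted p = 0.000584, 0.00114 and 0.0134). For serrated against LSL AOM, 0 genes were called with the compared groups alone in the fit and 0 without variance moderation (Cd3g had adjusted p of 0.0611 and 0.176). With each array left out in turn the counts ran from 0 to 1 against both AOM groups, 0 to 1 against K-rasG12D AOM and 0 to 2 against LSL AOM, where Gzma joined without serrated replicate 3. Between the AOM groups the count was 0 in every alternative. Of 1116 recomputed differences of the 18 genes described on every array, 94 turned sign without being called before or after. Another 15 kept their sign and became called, and 2, those of Itgae, turned sign and became called. A further 8, those of Cd3g in serrated against LSL AOM tumors, kept their sign and lost the call. Many of the 1116 could not change. Trend and robust variance, no variance moderation and the dim filter leave a difference as it was. So do the probe set mean of a gene with a single row and leaving out an array of a group not compared. No paired analysis was possible because the labels give no replicate number shared between groups. With 2 or 3 arrays a group and most genes dim, differences under 2-fold were often not detectable.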

Other observations

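Of the 9 T cell receptor variable segments with a row of their own, a list chosen after its values were seen, 0 were called by limma in any comparison, with 1, 1, 0 and 0 at an unadjusted p under 0.05. Their median difference was 0.18 between serrated and both AOM groups, and serrated replicate 1 was the highest array for 4 of the 9. Trgv1, a gamma chain segment, stood at 2.31, 2.54 and 2.52 on the serrated arrays, at 1.57, 1.75 and 2.00 on the K-rasG12D AOM arrays and at 2.24 and 2.03 on the LSL AOM arrays. All serrated arrays were above all AOM arrays for this segment, with a difference of 0.50 ± 0.16 from both groups that did not pass (limma adjusted p = 0.0830).

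Il7r, the interleukin-7 receptor of T cells and innate lymphoid cells, and Cxcl13, a chemokine of B cell follicles, were chosen after their values were seen. Il7r was lower on both LSL AOM arrays (2.90 and 2.77) than on the K-rasG12D AOM arrays (3.37, 4.09 and 3.80) and differed by 0.92 ± 0.27 between the AOM groups (limma adjusted p = 0.370). Cxcl13 stood at 4.54, 6.03 and 6.20 on the K-rasG12D AOM arrays and at 3.74 and 3.70 on the LSL AOM arrays, a difference of 1.87 ± 0.48 (limma adjusted p = 0.316). Neither passed, and no gene of the table did in that comparison.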
